A study of Mus musculus with 50 samples.

Results

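The step from mid-gestation (E13.5, in embryonic days) to the first postnatal week (P4, in postnatal days) in mouse spinal motor neurons was read from 5 RNA libraries, 2 labelled E13.5 and 3 labelled P4, of 28 RNA libraries and 50 samples in all. Members were chosen by their age label and assay alone. All 5 libraries came from spinal cords of mice whose strain the labels give as C57BL/6 with both Chat-Cre and SUN1-GFP-3xMYC (the methods name the reporter SUN1-sfGFP-Myc), with no treatment, and no untagged control group was analysed here. In these animals Cre recombinase, made wherever the acetylcholine synthesis gene Chat is active, switches on a green fluorescent protein fused to the nuclear envelope protein SUN1, and nuclei are pulled out with antibody-coated beads. The RNA is therefore nuclear RNA. Each library pooled brachial and lumbar cord of several animals of both sexes, and the driver labels all cholinergic neurons (skeletal motor neurons, visceral motor neurons and interneurons). The study also cites labelling of other spinal neurons by this driver in adults. Its deconvolution of its own adult RNA found no significant share of non-cholinergic cells and mostly skeletal motor neurons. That estimate did not cover E13.5 or P4. The methods state that at E13.5 and P4 part of the purified nuclei carried no label, with blood vessels as a contaminant. The labels do not say which animals went into which library, so p-values measure spread between pooled libraries, not between animals. That spread was estimated over all 18 in vivo RNA libraries from E10.5 to 2 years, not the 5 alone. By the methods, the E10.5 libraries came from sorted whole cells of Hb9-GFP embryos. A further 4 ATAC libraries of the same strain and ages, 2 per age, made from sorted SUN1-GFP nuclei, provided open chromatin regions.

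At E13.5 motor neurons have left the cell cycle, and their axons are growing into the limbs and selecting muscles. Before birth many of them die, and after it the survivors compete for muscle fibres and the network begins to drive breathing, suckling and crawling. A mature motor neuron fires through voltage-gated sodium, calcium and potassium channels, is excited by glutamate, inhibited by glycine and GABA, and is tuned by serotonin and noradrenaline from the brainstem.

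The plot of mean counts at each age shows the whole step. Values below are normalised counts, meaning the rounded expected read count of a gene divided by a size factor for its library (replicate 1 is given first), and log2 fold changes are P4 minus E13.5 ± standard error. Of 15030 genes tested, 3571 were higher at P4 (23.8%) and 2849 lower (19.0%), at an unadjusted p under 0.001 and at least a 2-fold change, and the highest adjusted p among those 6420 genes (42.7% of those tested) was 0.00206. Fold changes reached 4-fold in 2049 of the higher and 1222 of the lower genes, and 16-fold in 353 and 115. Counts did not overlap between the ages for 11731 of the tested genes (78.1%), among them 3569 of the higher and 2849 of the lower genes. Without E13.5 replicate 2 the counts were 2542 and 2093. The median log2 fold change over all tested genes was 0.12 with the scaling used and 0.01 with median-of-ratios factors, so changes are best read against that shift.

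**Figure D1:**
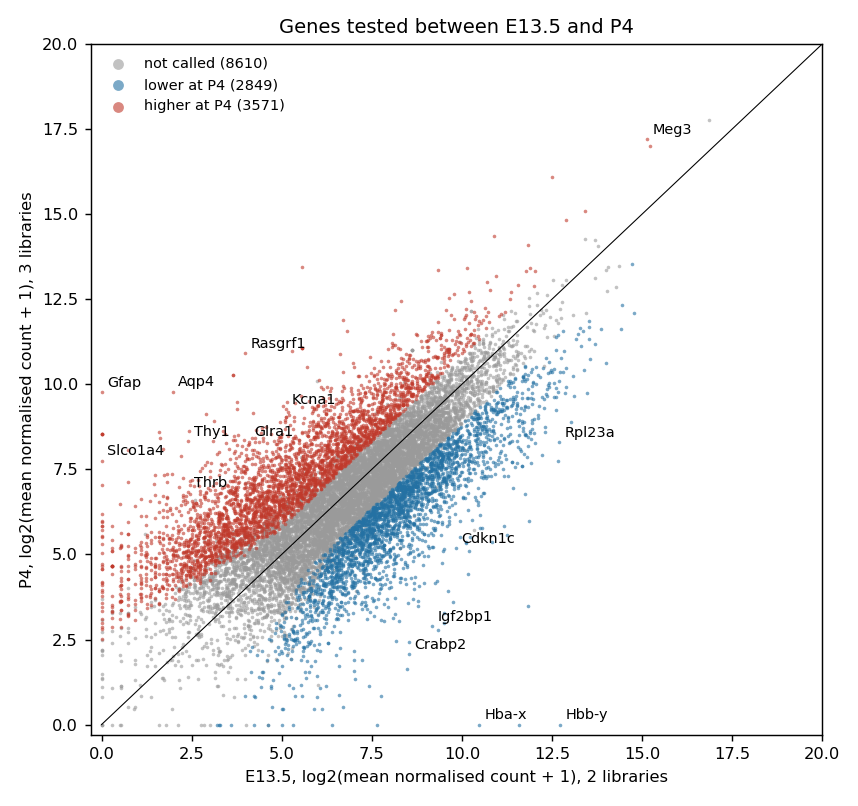
Each point is 1 of 15030 tested genes, with the mean normalised count of the 2 E13.5 libraries across and of the 3 P4 libraries up, both as log2 of the count plus 1, and the diagonal marking equal levels. The 3571 genes called higher at P4 lie above the diagonal and the 2849 called lower lie below it, with Gfap and Slco1a4 on the left edge and Hbb-y and Hba-x on the lower edge because they had no read at one age.

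The libraries differed in depth and in markers of other cells. E13.5 replicate 2 held 12731227 counts, against 5217923 in replicate 1 and 3820957 to 4379026 in the P4 libraries. Correlations of log2 counts over genes were 0.956 between the E13.5 libraries and 0.950 to 0.965 among the P4 libraries, against 0.630 to 0.745 between the ages. The median standard deviation of a gene's log2 count was 0.289 at E13.5 and 0.203 at P4. The 11 endothelial markers summed to 14980 and 29290 normalised counts at E13.5 and 6419 to 8678 at P4, and the 10 progenitor and cycling cell markers to 8317 and 16000 against 1816 to 2150, so both were close to doubled in E13.5 replicate 2. The 10 erythroid markers summed to 17300 and 20660 against 1155 to 1565, and the 7 fibroblast and meningeal markers to 4250 and 3074 against 450 to 746. The 9 oligodendrocyte markers summed to 337 and 429 at E13.5 and 2181 to 2807 at P4, the 8 astrocyte markers to 420 and 240 against 2168 to 2832, and the 10 markers of inhibitory and excitatory interneurons to 388 and 270 against 963 to 1642. Pericyte markers (7) summed to 2469 and 2452 against 3548 to 5310, sensory neuron markers (7) to 283 and 198 against 18.8 to 41.8, and microglial markers (8) to 102 and 53.4 against 27.6 to 34.0. In the plot of these sums all 10 lists of other cells separate the ages without overlap. No marker was at 0 in all 5 libraries. Fewer cells of a type and less RNA per cell cannot be told apart in such libraries.

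**Figure D2:**
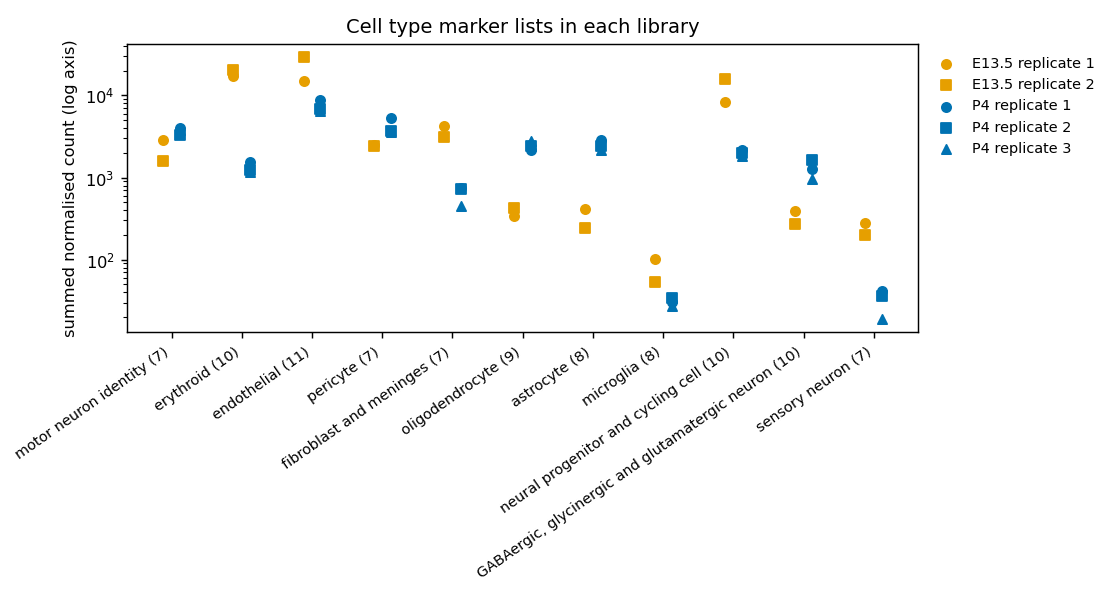
Summed normalised counts (log axis) of each cell type's markers in the 2 E13.5 and 3 P4 libraries, with the number of genes in parentheses. Endothelial and cycling cell markers are highest in E13.5 replicate 2 (29290 and 16000), and the 7 motor neuron markers run from 1594 in that library to 4064 in P4 replicate 1.

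Genes that define cholinergic motor neurons were present in every library. Chat, the enzyme that makes acetylcholine, had 225 and 115 normalised counts at E13.5 and 485, 497 and 452 at P4, a log2 fold change of 1.67 ± 0.27. Slc5a7, the choline transporter that feeds it, went from 529 and 215 to 1634, 1433 and 1702 (2.26 ± 0.34). Both were lower in E13.5 replicate 2 than in replicate 1, and neither overlapped between the ages. Mnx1, a homeodomain factor that sets motor neuron identity, fell from 66.3 and 63.1 to 13.54, 17.5 and 16.3 (-1.87 ± 0.37), while Isl1, the LIM factor at the top of the same programme, had 584 and 306 normalised counts at E13.5 and 427, 359.6 and 364 at P4 and was not called. Of 16 tested motor neuron selector factors, 1 rose (6.25%, against 23.8% of all genes) and 2 fell (12.5%, against 19.0%). Their median was -0.60, against 0.12 over all tested genes. Onecut2 rose (1.74 ± 0.22) and Lmo4 fell (-1.11 ± 0.18) beside Mnx1.

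Markers that separate kinds of motor neurons were mostly higher at P4. Of 17 genes used to tell alpha from gamma and fast from slow motor neurons, 12 rose and 1 fell (median 2.11), and 7 rose and 1 fell without E13.5 replicate 2. Esrrb, a nuclear receptor enriched in gamma motor neurons, had 15.7 and 18.8 normalised counts at E13.5 and 146, 132 and 126 at P4 (3.09 ± 0.44). Sv2b, a synaptic vesicle protein, rose from 82.9 and 43.8 to 520.3, 466 and 639 (3.29 ± 0.32). Htr1d, a serotonin receptor also used as a gamma marker, was near the detection limit at E13.5, with 0 and 2.19 normalised counts at E13.5 and 11.3, 9.87 and 18.8 at P4. Mmp9, the matrix protease of fast motor neurons, went the other way, from 93.9 and 67.4 to 26, 27.4 and 28.8 (-1.39 ± 0.34), and its call was lost with upper quartile factors (-1.33), with the 5 libraries alone (-1.45), with a replicate block (-1.28) and without any library other than E13.5 replicate 2 (between -1.43 and -1.12).

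Potassium channels, which set resting potential and end each spike, had more members called higher than any other list. Of 94 Kcn genes in the files 61 passed the filter on low counts, 42 rose and 2 fell (median 2.59), which is 68.9% of those tested against 23.8% of all genes, and without E13.5 replicate 2 the numbers were 37 and 2. Kcna1, the low-threshold channel of axons, had 41.4 and 26.3 normalised counts at E13.5 and 555, 554 and 726 at P4, a change of 4.38 ± 0.25. Kcnc1, a fast-closing channel of rapidly firing neurons, rose from 72.7 and 51.2 to 674, 634 and 661 (3.58 ± 0.27), and the leak channel Kcnk9 rose from 180.5 and 68.3 to 1477, 1376 and 1852 (3.84 ± 0.39). In all 3 every P4 library stood far above both E13.5 libraries. These 3 were picked after their values were seen, and the highest change in the list was 6.93. Kcnj16, whose promoter is described below, changed by 6.56. Astrocyte and oligodendrocyte marker sums were also higher at P4, and the part of other cells in the channel values was not tested. The silent subunit Kcng4 had no read at E13.5 and 9.03, 9.87 and 22.5 normalised counts at P4, at least 15.1-fold higher against a floor of 3 counts over the E13.5 group. The exceptions were Kcnmb4, an auxiliary subunit of the calcium-activated BK channel, which fell from 158 and 175 to 30.5, 26.3 and 31.3 (-2.35 ± 0.26), and Kcnk5, a leak channel with 62 raw counts at E13.5 and 2 at P4 and a ratio of 23.9 (95% counting interval 6.34 to 202).

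Sodium and calcium channels showed the same one-sided pattern. Of 9 tested sodium channel genes 6 rose and none fell, and of 21 calcium channel genes 18 rose and none fell, with medians of 1.59 and 2.17 and with 5 and 16 rising without E13.5 replicate 2. Scn1a, the alpha subunit of fast-spiking neurons, had 375 and 155 normalised counts at E13.5 and 2036, 2254 and 2320.4 at P4 (3.22 ± 0.31), and the resurgent current subunit Scn4b had 4.6 and 10.1 normalised counts at E13.5 and 91.4, 76.7 and 116 at P4 (3.69 ± 0.29). Scn3a, an alpha subunit best known from embryonic neurons, had 1004 and 550.0 normalised counts at E13.5 and 1261, 1402 and 1196 at P4 and was not called. Among calcium channels the auxiliary subunit Cacnb2 changed most, from 109.6 and 31.1 to 912, 1008 and 869 (3.96 ± 0.37), and the L-type subunit Cacna1d rose from 287 and 130.1 to 1275, 1355 and 1365 (2.85 ± 0.25). Cacnb3 was the lowest of the family, with 269 and 221 normalised counts at E13.5 and 159, 118 and 75.1 at P4, and was not called.

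The axon initial segment, where spikes start, and the node of Ranvier, where they are renewed, share scaffolds that were also higher. Of 12 tested genes 10 rose (9 without E13.5 replicate 2), with a median of 2.52. Cntnap1, the paranodal adhesion protein, rose from 43.3 and 29.3 to 479, 412 and 441 (3.80 ± 0.29). The spectrin Sptbn4 rose from 115 and 134 to 808, 791 and 669 (2.75 ± 0.26), and Kcnq3, a subunit of the M-current channel, rose from 251 and 103 to 1287, 1334 and 1262 (3.05 ± 0.31). Ank3, the ankyrin that organises the segment, was already at 5208 and 3538 at E13.5, with 6603, 7133 and 6118 at P4, and was not called.

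Receptors for fast transmitters were also higher. Of 18 ionotropic glutamate receptor genes 15 rose (14 without E13.5 replicate 2), none fell, and the median was 2.24. Grin1, the subunit every NMDA receptor needs, had 225 and 123 normalised counts at E13.5 and 1802, 1725 and 1789 at P4 (3.52 ± 0.34). The AMPA receptor subunit Gria3 rose from 163 and 90.2 to 1419.8, 1290.2 and 1648 (3.70 ± 0.25), and Gria4 rose from 1266 and 645 to 2816, 2973 and 3248 (1.81 ± 0.26). The 3 genes not called were Grik3, Grin2c and Grin3b, the last at 5.01 normalised counts or less in every library.

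Receptors for the inhibitory transmitters were higher too. Of 16 tested GABA-A and glycine receptor genes 14 rose and none fell (median 2.57), and 13 rose without E13.5 replicate 2. Glra1, the adult glycine receptor subunit, had 14.7 and 17.1 normalised counts at E13.5 and 309, 329 and 311 at P4, a change of 4.44 ± 0.23 with the P4 libraries nearly equal. Glrb, its partner that anchors the receptor at synapses, rose from 31.3 and 15.3 to 255, 319 and 347 (3.96 ± 0.29). Gabrq, a rare GABA-A subunit of brainstem and spinal neurons, rose from 7.37 and 3.94 to 192, 171 and 163 (5.20 ± 0.43), and Gabrg3 rose from 62.6 and 17.5 to 694, 728 and 656 (4.37 ± 0.38). Glra2, the embryonic glycine receptor subunit, was the lowest of the list with 175 and 52.1 normalised counts at E13.5 and 198, 179.8 and 203 at P4, and was not called (2.07 and called without E13.5 replicate 1). The chloride exporter Slc12a5, whose activity makes GABA and glycine inhibitory, rose from 228 and 139 to 735, 832 and 779 (2.26 ± 0.37), and the importer Slc12a2 had 629.8 and 1005 normalised counts at E13.5 and 450.3, 545 and 501 at P4 and was not called.

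Receptors for slow modulators had the highest median of all 39 pathway lists, 3.21. Of 40 genes in the files 21 passed the filter, 19 rose and none fell, with 15 rising without E13.5 replicate 2. Htr2c, a serotonin receptor that raises motor neuron excitability, had 0 and 3.5 normalised counts at E13.5 and 135, 159 and 108 at P4 (5.94 ± 0.42). Adra1a, the alpha-1 noradrenaline receptor, rose from 12.9 and 6.57 to 177, 195 and 230.4 (4.63 ± 0.29), and Htr4 rose from 6.45 and 0.438 to 75.6, 81.1 and 73.9 (4.98 ± 0.63). Chrm2, the muscarinic receptor found at the large cholinergic inputs of motor neurons, rose from 86.6 and 30.7 to 659, 546 and 659.9 (3.64 ± 0.43). The metabotropic glutamate receptor Grm5 rose from 104 and 23.6 to 559, 934 and 483 (3.62 ± 0.47). The 2 members not called were Adra2a, with 51.6 and 52.5 normalised counts at E13.5 and 45.1, 57 and 96.4 at P4, and Grm2.

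**Figure D3:**
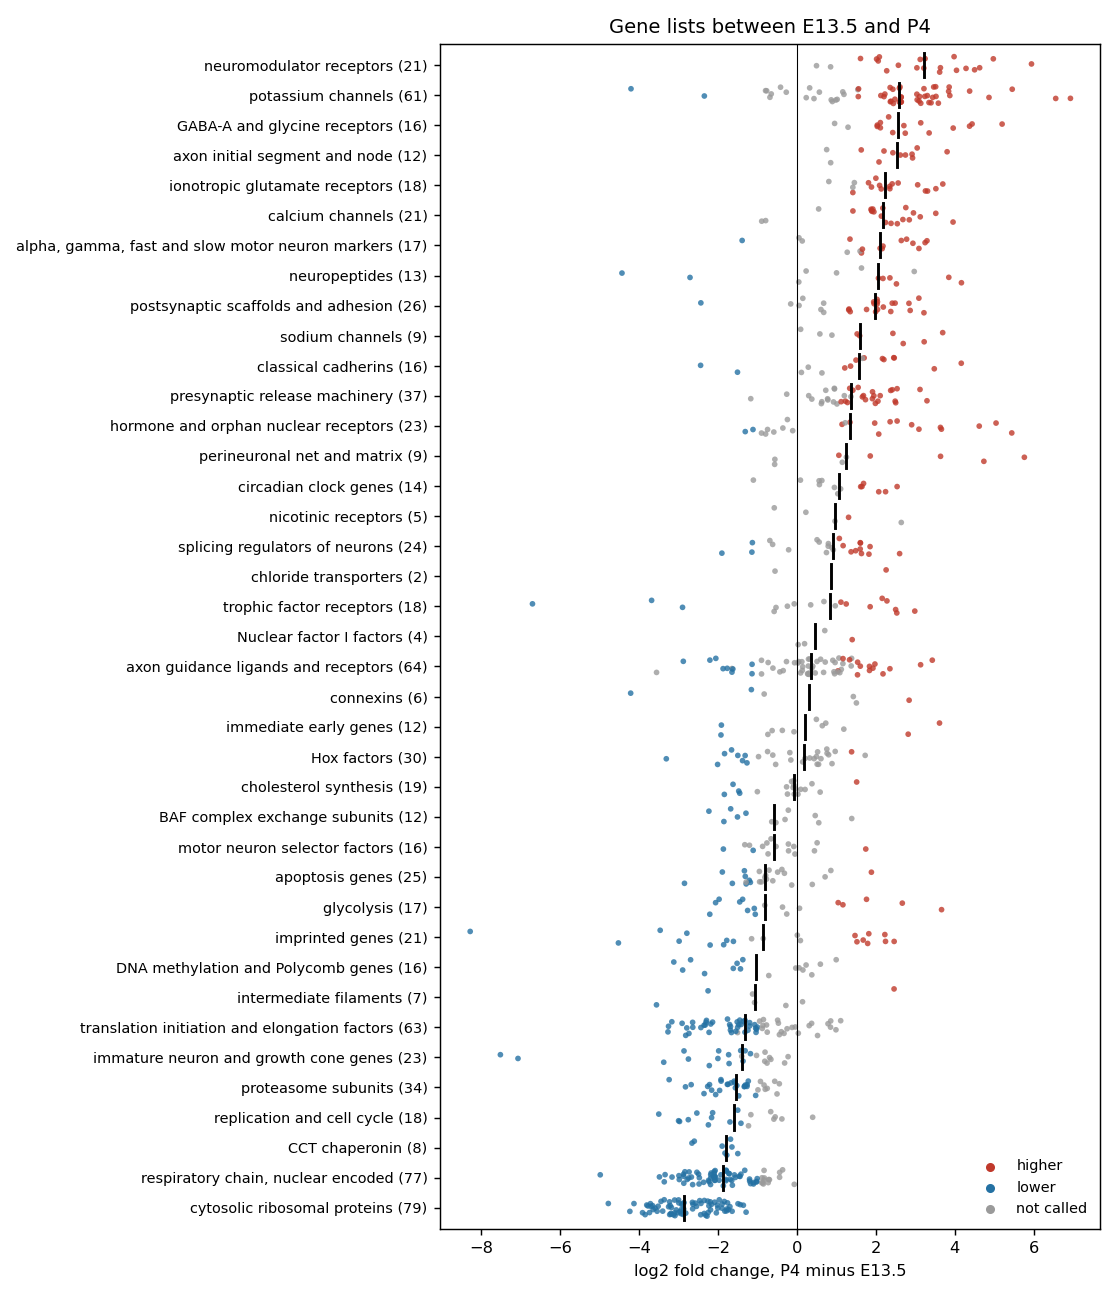
Log2 fold change (P4 minus E13.5) of every tested member of 39 pathway lists, with the number tested in parentheses, red for genes called higher, blue for lower and grey for not called, and a bar at each list's median. Neuromodulator receptors lie at the top (median 3.21) and cytosolic ribosomal proteins at the bottom (median -2.87).

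Release and scaffold proteins of the synapse rose less evenly. Of 37 presynaptic genes 22 rose and none fell (median 1.37), but 12 rose without E13.5 replicate 2. Synaptic vesicle genes Sv2b and Syn2 led the list, Syn2 going from 123 and 57.8 to 657, 771 and 635 (3.12 ± 0.35), while Stx1a, a plasma membrane SNARE, had 721 and 676 normalised counts at E13.5 and 299, 253 and 282 at P4 (-1.17 ± 0.30) and was not called, though it was called lower with DESeq2, with median-of-ratios factors (both -1.28), without the filter (-1.40) and with the 5 libraries alone (-1.23). Of 26 postsynaptic scaffold and adhesion genes 19 rose and 1 fell (14 and 1 without that library). Dlg2, a scaffold of glutamate synapses, rose from 405 and 142 to 2189.6, 2358 and 2236 (3.22 ± 0.32), and Homer3 fell from 181 and 272 to 35, 42.8 and 35.1 (-2.44 ± 0.25). The perineuronal net, a matrix that coats mature motor neurons, had 5 of 9 genes higher (3 without that library), led by the link protein Hapln4, which rose from 0.921 and 2.63 to 99.3, 81.1 and 138 (5.76 ± 0.39), and by Bcan and Acan (4.74 ± 0.42 and 3.64 ± 0.41).

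Of 13 tested neuropeptide genes 6 rose and 2 fell, and 3 and 2 did so without E13.5 replicate 2. With all libraries 46.2% rose and 15.4% fell, against 23.8% and 19.0% of all genes. Penk, the enkephalin precursor, had 25.8 and 10.1 normalised counts at E13.5 and 254, 241 and 302 at P4 (4.17 ± 0.45). Vgf had 35 and 10.1 normalised counts at E13.5 and 273, 242 and 277 at P4 (3.85 ± 0.51). Gal, the galanin precursor, fell from 138 and 54.7 to 4.51, 4.38 and 2.5 (-4.44 ± 0.62), and Npy fell from 91.2 and 63.5 to 14.7, 5.48 and 11.3 (-2.71 ± 0.56), a call lost without E13.5 replicate 1 (-2.41) or P4 replicate 2 (-2.40). Calca, the calcitonin gene-related peptide of motor neurons, varied among P4 libraries, with 28.5 and 6.57 normalised counts at E13.5 and 48.5, 37.3 and 108 at P4 (2.18 ± 0.53), and its call was lost without E13.5 replicate 2 (1.31) or P4 replicate 3 (1.597), and also with median-of-ratios factors (2.07), the 5 libraries alone (2.09) and a replicate block (1.99).

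The plot of members by library gives these values side by side.

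**Figure D4:**
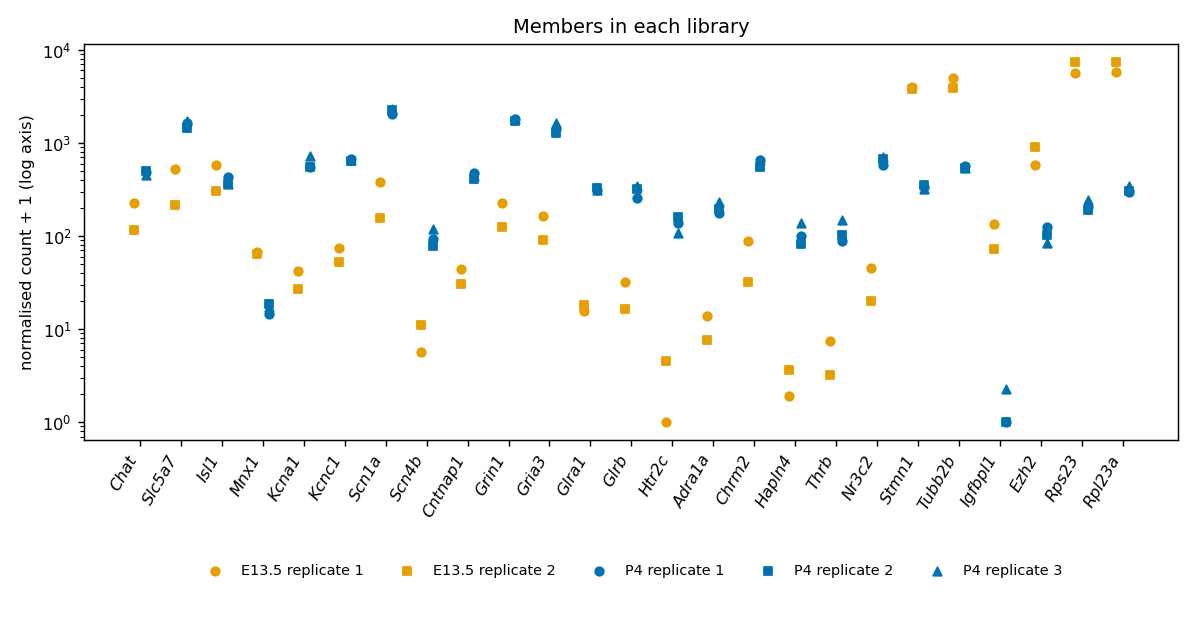
Normalised count plus 1 (log axis) of 25 genes in each of the 5 libraries, orange for E13.5 and blue for P4, with a marker shape for each replicate. From Kcna1 to Nr3c2 every blue point lies above both orange points, and from Stmn1 to Rpl23a every blue point lies below both, whereas the ages overlap for Isl1.

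Genes of young, growing neurons ran opposite to the channels. Of 23 immature neuron and growth cone genes 14 fell and none rose (median -1.40), and 15 fell without E13.5 replicate 2. Stmn1, a microtubule destabiliser of growing neurites, had 4011 and 3767 normalised counts at E13.5 and 335, 353 and 318 at P4 (-3.38 ± 0.30). The tubulin Tubb2b fell from 4942 and 3896 to 567, 535 and 532 (-2.87 ± 0.32). Igfbpl1, a marker of newly born neurons, had 310 raw counts at E13.5 and 1 at P4, a ratio of 239 (95% counting interval 42.6 to 9466). Nhlh1, a basic helix-loop-helix factor of neurons that have just left the cell cycle, had 22.1 and 13.1 at E13.5 and no read at P4, at least 13.9-fold lower against the floor of 3 counts over the P4 group. Several growth genes were not called, among them Dcx with 2976 and 1575 normalised counts at E13.5 and 1394, 1313 and 1168 at P4, Gap43 with 742 and 492 normalised counts at E13.5 and 321, 363 and 341 at P4 and Stmn2 with 2053 and 1217 normalised counts at E13.5 and 1278, 1201 and 1287 at P4.

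The 64 tested axon guidance ligands and receptors split, with 14 higher and 9 lower (8 and 5 without E13.5 replicate 2) and a median of 0.35. The share called higher, 21.9%, was close to the 23.8% of all genes. Epha6, a receptor for ephrin-A ligands, rose from 107 and 41.2 to 464, 646 and 572 (3.13 ± 0.33), and Epha5 rose from 366 and 213 to 1115, 1258 and 1138 (2.18 ± 0.20). Of the ephrin ligands Efna1, Efnb1 and Efnb2 fell, with Efnb2 going from 606 and 878 to 182, 175 and 188 (-1.88 ± 0.18) and Efna1 going from 134 and 223 to 47.4, 36.2 and 20 (-2.21 ± 0.37). Both Efna1 and the vascular semaphorin Sema3g, from 86.6 and 222 to 20.3, 19.7 and 16.3, were higher in E13.5 replicate 2 than in replicate 1, as were the endothelial markers, whose part in these values was not tested. Cadherins, adhesion molecules that sort motor neurons into pools, had 10 of 16 tested members higher and 2 lower, and 6 and 2 without that library. In the full fit 62.5% of tested cadherins rose and 12.5% fell, against 23.8% and 19.0% of all genes. Cdh18 rose from 37.8 and 18 to 202, 319 and 269 (3.48 ± 0.32). The lower pair was Cdh2 (-1.51 ± 0.19) and the endothelial Cdh5 (-2.44 ± 0.27).

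Target muscles and glia keep motor neurons alive through trophic factor receptors. Of those tested 44.4% rose and 16.7% fell, against 23.8% and 19.0% of all genes. Of 18 members 8 rose and 3 fell, against 5 and 3 without E13.5 replicate 2. Ret, the signalling receptor for the GDNF family, had 434 and 225 normalised counts at E13.5 and 1709.9, 1608 and 1772 at P4 (2.53 ± 0.39), and its co-receptor Gfra1 rose from 326 and 153 to 946, 808 and 1098 (2.16 ± 0.29). The neurotrophin receptors Ntrk3 and Ntrk2 rose, Ntrk3 from 399 and 203 to 2011, 2343 and 2029 (2.99 ± 0.30) and Ntrk2 from 385 and 233 to 1361, 1731 and 1594. Ngfr, the low-affinity neurotrophin receptor, fell from 575 and 326 to 72.2, 42.8 and 46.3 (-2.90 ± 0.41).

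Of 25 apoptosis genes 8 fell and 1 rose (median -0.81), but 2 fell and none rose without E13.5 replicate 2. Bmf, a BH3-only killer protein, fell from 134 and 182 to 14.7, 27.4 and 16.3 (-2.85 ± 0.34), and Bax, the pore former of mitochondrial death, fell from 90.2 and 122 to 44, 34 and 37.6 (-1.31 ± 0.27, and -1.08 and not called without E13.5 replicate 2). Hrk, a BH3-only protein of neurons deprived of trophic factor, went the other way, from 28.5 and 12.7 to 68.8, 74.5 and 52.6 (1.89 ± 0.41), but was not called without E13.5 replicate 2 (1.34) or P4 replicate 2 (1.77). Bcl2, which blocks Bax, had 252 and 343 normalised counts at E13.5 and 438, 448 and 431 at P4 (0.71 ± 0.20) and missed the 2-fold limit. Among 7 intermediate filaments Nefh, the heavy neurofilament of large axons, rose from 510.1 and 244 to 2038, 1497 and 2031 (2.46 ± 0.35), and the progenitor filaments Vim and Nes fell (-3.56 ± 0.25 and -2.26 ± 0.34). Nefm was high at both ages, with 18181 and 15106 normalised counts at E13.5 and 7678, 5757 and 7099 at P4, and was not called.

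Nuclear hormone receptors were called higher in 56.5% of tested members and lower in 8.7%, against 23.8% and 19.0% of all genes. Of 23 tested receptors 13 rose and 2 fell, and 11 and 1 without E13.5 replicate 2. Thrb, a thyroid hormone receptor, had 6.45 and 2.19 normalised counts at E13.5 and 86.9, 102 and 149 at P4 (5.05 ± 0.40), and Nr3c2, the mineralocorticoid receptor, rose from 44.2 and 18.8 to 580.1, 674 and 702 (4.62 ± 0.27). Esr1, an oestrogen receptor, rose from 7.37 and 1.31 to 32.7, 47.1 and 42.6 (3.64 ± 0.54), which was chosen after its values were seen because its promoter is described below. Thra, the other thyroid hormone receptor, had 788 and 661 normalised counts at E13.5 and 530.5, 476 and 515 at P4 and was not called. The retinoid receptor Rarg fell from 68.1 and 137 to 41.8, 44.9 and 25 (-1.31 ± 0.32). That call was lost with the 5 libraries alone (-1.36), with a replicate block (-1.20), without E13.5 replicate 2 (-0.71) and without any P4 library (between -1.47 and -1.11).

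Splicing regulators of neurons had 11 of 24 members higher and 3 lower, and 7 and 2 without E13.5 replicate 2. The shares with all libraries were 45.8% higher and 12.5% lower, against 23.8% and 19.0% of all genes. Celf4 rose from 174 and 108 to 717, 1001 and 561 (2.60 ± 0.35). Srrm3, which drives neuronal microexons, rose from 227 and 182 to 728, 561 and 656 (1.82 ± 0.29). Ptbp1, the repressor of neuronal exons in non-neuronal cells and progenitors, fell from 747 and 1291 to 302, 197 and 233 (-1.91 ± 0.22).

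No gene of DNA methylation or Polycomb repression was called higher, and 8 of 16 were lower (1 higher and 7 lower without E13.5 replicate 2). Ezh2, the main histone H3 lysine 27 methyltransferase of dividing cells, had 584 and 908 normalised counts at E13.5 and 123, 102 and 83.9 at P4 (-2.70 ± 0.22). Uhrf1 and Dnmt1, which copy DNA methylation after replication, fell (-3.12 ± 0.35 and -1.62 ± 0.16). Dnmt3a, the de novo methyltransferase of postnatal neurons, had 702 and 797 normalised counts at E13.5 and 1393, 1423 and 1201 at P4, a change of 0.99 ± 0.18 just under the 2-fold limit (called at 1.08 without E13.5 replicate 2, 1.06 without P4 replicate 3 or with upper quartile factors, and 1.03 with a replicate block). In the BAF chromatin remodelling complex 5 of 12 members fell and none rose, Actl6a most, from 396 and 529.9 to 90.3, 81.1 and 93.9 (-2.23 ± 0.16), whereas its neuronal replacement Actl6b had 83.8 and 56.9 normalised counts at E13.5 and 84.6, 84.4 and 105 at P4 and was not called. Of 18 replication and cell cycle genes 11 fell and none rose, and Mcm3, part of the replicative helicase, fell from 587 and 1011 to 72.2, 71.3 and 45.1 (-3.51 ± 0.31). Ezh2, Uhrf1, Ptbp1 and Mcm3 were each higher in E13.5 replicate 2 than in replicate 1, as were the summed cycling cell markers (8317 and 16000), and the part of those cells in the decline was not tested.

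Genes for making protein and energy were mostly lower. Of 82 cytosolic ribosomal protein genes in the files 79 were tested and all 79 were lower at P4, with a median of -2.87 and a range of -4.78 to -1.29, and 76 were lower without E13.5 replicate 2. Rps23 had 5680.4 and 7349 normalised counts at E13.5 and 205, 191 and 240.4 at P4 (-4.78 ± 0.24), and the smallest decline, in Rpl10a, was from 559.8 and 735 to 252, 216 and 245 (-1.29 ± 0.15). Processed pseudogenes resemble many of these genes, and the counting may have split reads among them. Of 63 translation factors 39 fell and none rose (29 without that library), Eif3g going from 1349 and 2005 to 189.6, 162 and 119 (-3.26 ± 0.18). Of 77 tested nuclear genes of the respiratory chain 63 fell and none rose (61 without that library, median -1.87). Atp5mpl, a small subunit of ATP synthase, fell from 845 and 1512 to 35, 27.4 and 37.6 (-4.99 ± 0.24), while Ndufs1 of complex I had 402 and 436 normalised counts at E13.5 and 379, 338 and 359 at P4 and was not called.

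Glycolysis was mixed. Of 17 genes 5 were higher (29.4%, against 23.8% of all genes) and 8 lower (47.1%, against 19.0%). The median was -0.82, and -0.70 without E13.5 replicate 2. Eno2, the neuronal enolase, rose from 109 and 52.1 to 925, 854 and 889 (3.66 ± 0.40), and Eno1, the form most other cells use, fell from 1423 and 1609 to 613, 533 and 567 (-1.25 ± 0.14). Ldha, which makes lactate, fell from 589 and 826 to 167, 146 and 143 (-2.06 ± 0.26). Aldoc rose by 2.67 ± 0.47, but it also stands among the astrocyte markers.

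For 9 pairs of related genes, the late form was compared with the early by the log2 ratio of normalised counts plus 1. These counts are not corrected for transcript length, so a ratio shows change between ages, not which gene has more RNA. Glra1 over Glra2 went from -3.48 and -1.55 at E13.5 to 0.64, 0.87 and 0.61 at P4. Slc12a5 over Slc12a2 went from -1.46 and -2.85 to 0.71, 0.61 and 0.64. Ezh1 over Ezh2 went from -1.94 and -2.13 to 0.96, 0.99 and 1.12, although Ezh1 itself was not called, with 151 and 207 normalised counts at E13.5 and 240.4, 204 and 184 at P4. Grin2a over Grin2b changed less, from a mean of -1.14 ± 0.12 (SD, n = 2) to 0.04 ± 0.20 (SD, n = 3), with both subunits higher at P4 (3.25 ± 0.34 and 2.09 ± 0.33). Scn8a over Scn3a moved from -0.58 ± 0.17 to 0.94 ± 0.17, and Ptbp2 over Ptbp1 from -0.53 ± 1.04 to 2.29 ± 0.44. Actl6b over Actl6a went from -2.71 ± 0.69 to 0.04 ± 0.13, and Dpysl2 over Dpysl3 from -0.80 ± 0.48 to 0.43 ± 0.08. Tubb4a over Tubb2b went from -3.15 ± 0.31 to -0.50 ± 0.24. By TPM, a level corrected for transcript length, Glra1 was below Glra2 in both E13.5 libraries and above it in every P4 library. Slc12a5 was above Slc12a2 by TPM in E13.5 replicate 1 (17.3 against 13.7) and below it in replicate 2 (7.29 against 21.9). At P4 it was above Slc12a2 in every library.

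Some of the largest fold changes belonged to marker genes of other cells. Gfap, the filament of astrocytes, had no read at E13.5 and 1115, 821 and 686 at P4, at least 988-fold higher against the floor of 3 counts. Slco1a4, a transporter of brain endothelium, had none at E13.5 and 230.2, 239 and 174 at P4 (at least 243-fold), and the myelin gene Mobp went from 3.68 and 0.438 to 345, 342 and 347 (7.87 ± 0.59). At the other end Hbb-y and Hba-x, the embryonic globins of red cells, had no read at P4. Hbb-y had 5842 and 7719 at E13.5 and Hba-x 942 and 1895, so they were at least 6158-fold and 1375-fold lower. Plvap, a protein of fenestrated endothelium, fell from 429 and 1286 to 5.64, 16.4 and 11.3 (-6.10 ± 0.46). The astrocyte, oligodendrocyte, erythroid and endothelial sums given above moved the same way as Gfap, Mobp, the globins and Plvap, whereas Slco1a4 rose while the endothelial sum was lower at P4. The part of these cells in the values was not tested.

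Other leading genes are not in a marker list. Rasgrf1, a calcium-regulated Ras activator of neurons, rose from 20.3 and 9.2 to 2059, 1871 and 1824 (7.30 ± 0.28). Thy1, a surface protein of mature projection neurons, rose from 6.45 and 2.19 to 331, 293 and 333 (6.55 ± 0.30), and Cpne6, a neuronal calcium-binding protein, rose from 6.45 and 6.57 to 699.8, 414 and 575 (6.56 ± 0.30). All 3 had E13.5 values of 20.3 or less and P4 values above 290. The actin-binding Coro6 rose from 2.76 and 1.31 to 502, 330.0 and 319 (7.80 ± 0.45). The ATPase Atp13a5 rose from 2.76 and 1.75 to 325, 258 and 230.4 (7.09 ± 0.53). Its mean was lower again at P13 (31.5) and P21 (10.8), as was that of Slco1a4 (28.6 and 12.2). Which cells gave the Atp13a5 reads was not tested. Fam205a2, with 4.6 and 0 normalised counts at E13.5 and 161, 163 and 152 at P4, belongs to a family of near-identical copies and its value is uncertain (not called without E13.5 replicate 2).

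On the falling side Crabp2, which carries retinoic acid into the nucleus, went from 455 and 284 to 1.13, 2.19 and 6.26 (-6.69 ± 0.46). Igf2bp1, an RNA-binding protein of embryonic tissue, went from 364 and 798 to 6.77, 8.77 and 3.76 (-6.30 ± 0.38). Myh3, the embryonic myosin of skeletal muscle, had 737 raw counts at E13.5 and 2 at P4, a ratio of 284 (95% counting interval 78.3 to 2349). The histone genes H2ac7 and H2bc14 fell (-6.25 ± 0.52 and -5.68 ± 0.42), and both have close copies. Brms1 had 617 raw counts at E13.5 and 3 at P4, a ratio of 158.5 (95% counting interval 54.0 to 771). Among long noncoding RNAs Gm32647, Gm9866 and Gm1604a led the rises (5.50 ± 0.38, 5.22 ± 0.33 and 5.18 ± 0.52), and Gm28037 and Gm20632 fell beside H19 (-6.69 ± 0.80, -6.18 ± 0.51 and -8.29 ± 0.46).

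Measured by TPM among called genes annotated as protein-coding, the largest gains were in Snhg11, Gm47283, Gm21887, Ank2 and Atp11b. The largest losses were in Tmsb10, Rpl23a, Hba-a2, Hbb-y and Atpif1. Meg3, a noncoding RNA outside that ranking, rose from a mean of 460.6 to 2012.5 TPM. Snhg11, a host of small nucleolar RNAs that is annotated here as protein-coding, went from 560.3 and 324 TPM to 1425, 914 and 679.5. Ank2, a large ankyrin of axons, went from 163 and 73.3 to 379, 305 and 215 TPM. Its normalised counts were nearly level among the P4 libraries (10163, 10918 and 9736). Those of Meg3 were too (152524, 154374 and 145723), against 2597, 1977 and 1463 TPM. TPM is therefore not on a common scale across the P4 libraries, and sizes of change in TPM carry that limit. Tmsb10, an actin-binding peptide of young neurons, went from 2756 and 3822 to 374, 241 and 226 TPM, and Atpif1, the inhibitor of mitochondrial ATP synthase, from 2173 and 2478 to 103, 65.6 and 64.9.

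The share of genes called in each direction differed with annotated gene span. Of 1239 tested protein-coding genes spanning under 5 kb, 8.23% were higher and 43.8% lower (median -1.10). Of 900 genes spanning over 200 kb, 51.8% were higher and 3.44% lower (median 1.18), and the shares in the 5 classes between them changed in order. The lists differ in span, with medians of 298 kb for ionotropic glutamate receptors, 54.5 kb for potassium channels and 3.29 kb for ribosomal proteins. Among members of the excitability and synapse lists spanning under 20 kb, 29 of 59 were higher and 4 lower (median 1.52), against 578 and 1655 of 5096 protein-coding genes of that span (median -0.58). At 100 kb and over the numbers were 93 of 113, with none lower, against 842 of 2134. The part of gene span in the list values was not otherwise tested.

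**Figure D5:**
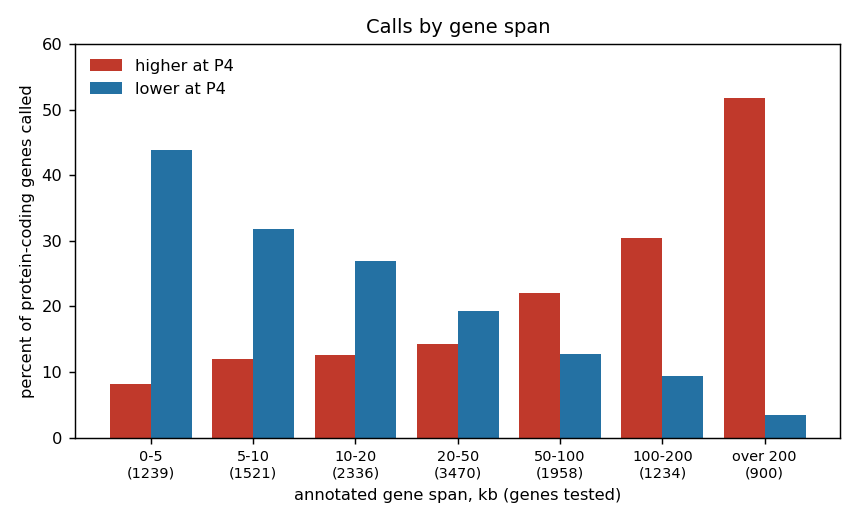
Percent of tested protein-coding genes called higher (red) or lower (blue) at P4 in 7 classes of annotated gene span, with the number of genes under each class. The share called higher grows from 8.23% to 51.8% and the share called lower shrinks from 43.8% to 3.44%.

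Kinds of transcript also differed by direction. Protein-coding genes made up 65.8% of the higher and 95.6% of the lower genes. Of 1105 tested genes in the annotation class TEC, short models that still await experimental evidence, 742 were higher and 1 was lower, and of 108 sense-intronic transcripts 73 were higher and none lower. Of 229 long intergenic RNAs 102 were higher and 12 lower. Malat1, the most abundant nuclear RNA in all 5 libraries, took 2.52% and 2.06% of counts at E13.5 and 4.46% to 4.83% at P4.

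Open chromatin was described from peaks of the ATAC libraries. Among the 60000 highest peaks of each library, 8196 regions seen in both E13.5 libraries had no peak in either P4 library, and 3813 had the converse, with 156485 and 179718 peaks per library at E13.5 and 96168 and 115517 at P4. Distal regions present at P4 only, over 2 kb from any gene start and within 100 kb of a gene, lay nearest to 15.4% of 2350 higher, 10.3% of 2723 lower and 11.7% of 7585 other protein-coding genes. Regions present at E13.5 only lay nearest to 25.8%, 14.03% and 17.9%. The share was thus highest for the higher genes with both kinds of region, a description with no test. Longer genes were more often higher, as given above, and the part of span in these shares was not tested.

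Promoters were mostly open at both ages. A peak touched the promoter (a window of 300 bases around the RefSeq start) in all 4 libraries for 77.7% of 2650 promoters of higher genes and 86.0% of 2691 promoters of lower genes. Peaks in both P4 libraries and neither E13.5 library lay on 25 promoters of higher genes (0.94%), 12 of lower genes (0.45%) and 31 of 7908 promoters of genes not called (0.39%). The converse held for 18 (0.68%), 32 (1.19%) and 72 (0.91%). Chosen after their values were seen, Esr1, Kcnj16, Gad1 and Grm8 were among the higher genes with a promoter open at P4 only, and Nhlh1, Grb10 and Hoxa10 among the lower genes with one open at E13.5 only. The call of Hoxa10 was lost without E13.5 replicate 2 (-1.34) or P4 replicate 3 (-1.24) and with the 5 libraries alone (-1.44). Atp13a5 went against this, being higher at P4 with a promoter peak at E13.5 only. Gad1 also stands among the interneuron markers, and the part of other cells in the RNA and peaks of these genes was not tested.

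The 250 bases before the start are printed for 3 of these, 1 open at E13.5 only and 2 open at P4 only, because they carry both an age-specific peak and a change in RNA. All come from RefSeq on GRCm38.p6 and read 5′ to 3′ on the gene's strand, with capitals marking a match on either strand to TTGGCA, a nuclear factor I motif. The E-box CAGCTG, the nuclear receptor motif AGGTCA, the cAMP response element TGACGTCA and TATAAA were also searched and were not found in these windows. Over the same 250 bases of 32851 promoters TTGGCA occurred in 12.3%, CAGCTG in 13%, AGGTCA in 14%, TGACGTCA in 1.55% and TATAAA in 12.4%. No motif overlaps another here. Nhlh1 lies on the minus strand at chr1:172057597-172057846, and its match begins 121 bases before the start. Kcnj16, a subunit of inward rectifier channels, has its P4-open promoter on the plus strand at chr11:110997237-110997486, with a match 166 bases before the start. Esr1 lies on the plus strand at chr10:4611739-4611988 and holds no match.
Nhlh1: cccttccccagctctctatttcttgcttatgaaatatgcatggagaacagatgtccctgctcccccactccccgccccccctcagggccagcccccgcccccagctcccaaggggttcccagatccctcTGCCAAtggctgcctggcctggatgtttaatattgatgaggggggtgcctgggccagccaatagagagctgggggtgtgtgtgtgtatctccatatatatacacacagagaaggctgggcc
Kcnj16: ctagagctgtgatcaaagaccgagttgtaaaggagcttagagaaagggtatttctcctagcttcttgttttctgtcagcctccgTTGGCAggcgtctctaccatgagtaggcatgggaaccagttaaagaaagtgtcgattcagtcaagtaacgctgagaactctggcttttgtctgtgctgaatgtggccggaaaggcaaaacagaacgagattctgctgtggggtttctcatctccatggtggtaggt
Esr1: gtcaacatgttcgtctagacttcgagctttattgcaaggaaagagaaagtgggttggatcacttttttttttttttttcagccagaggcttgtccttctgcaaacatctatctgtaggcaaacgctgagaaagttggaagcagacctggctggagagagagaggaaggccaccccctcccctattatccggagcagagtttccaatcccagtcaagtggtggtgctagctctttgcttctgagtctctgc

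Peaks over Nhlh1 had a −log10 p of 20.3 and 25.8 in the E13.5 libraries and none was called at P4. Over the Esr1 promoter the values were 14.6 and 9.21 at P4, and over that of Kcnj16 they were 6.44 and 3.12, the weakest of the 3. Kcnj16 RNA had 1 raw count at E13.5 and 92 at P4, with 42.9, 36.2 and 26.3 normalised counts in the P4 libraries, a ratio of 119 (95% counting interval 20.9 to 4766). A second Esr1 promoter in the table had a peak in all 4 libraries, and 3 other Kcnj16 promoters had one in no library.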

How the data were processed

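Expected counts and TPM per gene were deposited as RSEM output, 1 file per library. According to the methods and the submitters' processing notes, the authors trimmed reads with Trim Galore and cutadapt 0.6.2, aligned them with STAR 2.5.2b to mm10 (GRCm38) and quantified genes with RSEM 1.3.0, which shares reads that fit several genes and so makes near-identical copies uncertain. Libraries came from a strand-specific total RNA kit with ribosomal RNA depletion. ATAC peaks were called by the authors with MACS2 2.2.7.1 per library after BWA alignment, and the deposited −log10 p of each peak was used to rank peaks.

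Expected counts were rounded and fitted with edgeR 4.0.16 (quasi-likelihood test, TMM factors) over all 18 in vivo RNA libraries with 1 coefficient per age, after removing genes that reached 5 CPM in all replicates of no age. A gene was called at an unadjusted p under 0.001 and 2-fold, and adjusted p used the Benjamini-Hochberg method. Standard errors were derived from the F statistic. Normalised counts used median-of-ratios size factors, so ratios of them differ slightly from the fitted fold changes. Intervals of ratios and the floor of 3 counts cover counting error only. On simulated counts for 15030 genes with this design, the fit found 90 of 100 simulated 4-fold changes and 30 of 100 simulated 2-fold changes, and called 10 unchanged genes. Gene types and spans came from GENCODE and promoter sequences from the RefSeq table of GRCm38.p6.

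The members and gene lists were chosen with earlier results of these data known. Named by rule were the 10 protein-coding and 3 long noncoding genes with the largest change in each direction. These needed no overlap between ages and a mean of at least 100 normalised counts at the higher age. The rule added the 5 largest gains and losses in TPM among called protein-coding genes, and up to 3 called genes per list and direction. Every member of lists of at most 16 genes, the paired genes and the cell type markers were also named. Some genes that this rule names are not reported here. All other named list members were picked after their values were seen: Adra2a, Bax, Bcl2, Cacna1d, Cacnb3, Calca, Chrm2, Dcx, Efnb2, Eno1, Epha5, Esr1, Gap43, Gfra1, Glrb, Grb10, Gria4, Grik3, Grin2c, Grin3b, Grm2, Grm5, Grm8, Hoxa10, Kcna1, Kcnc1, Kcnk9, Ndufs1, Rian, Rpl10a, Stmn2, Stx1a and Thra. Alternatives covered scaling, filter, fitted libraries, DESeq2 1.42.0, a replicate block, each library left out, and the ranking and distance of peaks.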

Additional observations from a re-analysis of the deposited data

How the results depend on the processing

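Counts of genes higher and lower at P4 stayed within 1.5 times of those reported under every alternative run: 3528 and 3198 with DESeq2, 3262 and 3173 with median-of-ratios factors, 3715 and 2656 with upper quartile factors, 3948 and 4058 without the filter on low counts, 2412 and 2536 with the 5 libraries alone, 4294 and 3302 at an adjusted p under 0.05, and 2542 to 3574 and 2093 to 3061 with 1 library left out. Without E13.5 replicate 2, 68.7% of the higher and 72.2% of the lower genes were called again, and in none of the alternative fits was a called gene called in the opposite direction. With the 5 libraries alone, 66.1% of the higher and 86.2% of the lower genes were called again. The replicate numbers do not pair the libraries (correlations of deviations -0.117 and -0.097). The fit with the replicate number as a block called 3492 higher and 2744 lower. Of 39 list medians 24 were above 0, and 21 to 24 under the alternatives. Of the 171 list members and leading genes named, 152 to 168 kept direction and call. Beside the losses given with each gene, the calls of Aldoc, Atf3, Efnb1, Hrk and Lmo4 were lost with the 5 libraries alone and those of Gm28037, Hba-x and Hbb-y with DESeq2, and calls of lower were gained by Nefm (-1.35 without the filter, -1.19 with the 5 libraries alone) and Cacnb3 (-1.12 without the filter). The Hox median of 0.17 was -0.052 without the filter, -0.23 with the 5 libraries alone and between -0.21 (without E13.5 replicate 2) and 0.35 (without E13.5 replicate 1) with 1 library left out. Without E13.5 replicate 1 the log2 fold changes of Isl1, Stmn2 and Tubb4a, none called, turned to 0.51, 0.22 and 0.22, against -0.46, -0.56 and -0.59 without E13.5 replicate 2, and that of Ndufs1 was 0.00031 with upper quartile factors. The cause of these turns was not tested.

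Shares of genes with distal regions moved with the peak choices, given for higher, lower and other genes. With the 30000 highest peaks the E13.5-only shares were 6.09%, 3.01% and 3.76% and the P4-only shares 3.96%, 2.17% and 2.60%. Within 20 kb they were 8.09%, 4.30% and 5.31%, and 3.75%, 2.83% and 3.34%. With presence in 1 library enough they were 41.4%, 24.6% and 30.1%, and 39.8%, 26.9% and 29.7%. By construction these settings keep fewer or more regions, and higher genes had the highest share in each. Depth limits genes with few reads, where ratios carry wide counting intervals, and the depth of the ATAC libraries was not used.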

Other observations

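Transcription factors that mark position along the cord, the clock and imprinted genes were not covered by the comparisons above. Of 30 tested Hox genes, which give motor neurons their segmental identity, 8 fell and 1 rose (6 and 0 without E13.5 replicate 2). In the full fit 26.7% of tested Hox genes fell and 3.33% rose, against 19.0% and 23.8% of all genes. Hoxb7 fell from 229 and 344 to 14.7, 32.9 and 30.1 (-3.31 ± 0.28). Hoxd10 of lumbar motor neurons fell from 189 and 153 to 42.9, 31.8 and 38.8 (-2.01 ± 0.39). Hoxd3 rose from 57.1 and 18 to 74.5, 89.9 and 81.4 (1.38 ± 0.35). The call of Hoxd3 was lost without E13.5 replicate 2 (0.67) or any P4 library, with median-of-ratios (1.27) or upper quartile factors (1.44), with the 5 libraries alone (1.28) and with a replicate block (1.45), so no Hox gene was called higher in those fits, and that of Hoxd10 without E13.5 replicate 1 (-1.83). Of 14 clock genes 6 rose and none fell, with Tef going from 71.8 and 91.1 to 333, 402 and 314 (2.24 ± 0.19) and the repressor Nr1d1 going from 11 and 7.44 to 57.6, 37.3 and 45.1 (2.54 ± 0.34). Of 12 activity-induced genes 2 rose and 2 fell (16.7% each, below the 23.8% and 19.0% of all genes). Arc rose from 3.68 and 2.19 to 35, 29.6 and 28.8 (3.61 ± 0.43) and Npas4 rose from 12.9 and 6.13 to 49.7, 65.8 and 53.8 (2.82 ± 0.58), while Ier2 fell from 119 and 177 to 45.1, 26.3 and 33.8 (-1.93 ± 0.25) and Atf3 also fell. The call of Npas4 was lost without E13.5 replicate 2 (2.27), and that of Atf3 without E13.5 replicate 2 (-1.699) or P4 replicate 2 or 3.

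Of 21 tested imprinted genes 9 fell (42.9%, against 19.0% of all genes) and 8 rose (38.1%, against 23.8%). H19, a fetal growth RNA, fell from 2656 and 4644 to 13.54, 11 and 6.26 (-8.29 ± 0.46), and the cell cycle inhibitor Cdkn1c fell from 889 and 946 to 38.4, 43.8 and 23.8 (-4.53 ± 0.28). The noncoding RNAs of one cluster, Meg3, Rian and Mirg, rose by 2.23 ± 0.26, 1.82 ± 0.23 and 2.24 ± 0.21, and Meg3 reached 152524, 154374 and 145723 normalised counts at P4. Of 19 cholesterol synthesis genes 4 fell (21.1%, close to the 19.0% of all genes) and 1 rose (5.26%, against 23.8%). Lss, the enzyme that closes the sterol rings, rose from 122 and 98.1 to 265, 297 and 279 (1.51 ± 0.22).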
